A study of Homo sapiens with 40 samples.

Results

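The 10 genes described here encode the NF-kappa B transcription factor and the proteins that restrain it. They were chosen by name, but with earlier results of these data known, so that their counts beside all genes are descriptive. They are the subunits NFKB1, NFKB2, RELA, RELB and REL, the I kappa B inhibitors NFKBIA, NFKBIB and NFKBIE, and the feedback regulators TNFAIP3 and BIRC3. All 10 of the 58395 genes in the count table were present, and all 10 passed the filter of at least 10 counts summed over the libraries, as did 28922 genes in all. The transcriptome was measured by RNA-seq in wild-type (WT) HEK293A cells, an adherent human embryonic kidney line, and in PARP1-KO HEK293A cells, a single CRISPR/Cas9 clone with a deletion in protein-coding exons of PARP1 (the labels also call it a knockdown). PARP1 is a DNA break sensor that marks damaged sites with poly(ADP-ribose). Cells of each genotype were left untreated, or were given 0.1% DMSO, 5 µM OL9-119, topotecan (Tpc), or Tpc with 5 µM OL9-119, for 5 to 5.5 h. The dose of Tpc was 100 nM for the WT line but 50 nM for the PARP1-KO clone, and every drug-treated group also received the solvent DMSO. There were 4 libraries in each of the 10 groups and 40 in all. Tpc traps topoisomerase 1 on DNA, and OL9-119 is an inhibitor of TDP1, the enzyme that removes such adducts. Because the clone and its dose of Tpc always went together, genotype and dose cannot be told apart in any comparison of Tpc responses. The sources name the libraries both biological and technical replicates, so that the p-values measure the spread between these libraries, which may be technical. RNA came from whole cultures, so that a change in every cell and a change in some of the cells cannot be told apart.

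NF-kappa B is a family of dimeric transcription factors. In resting cells the dimers are held in the cytoplasm by I kappa B proteins, and signals from receptors or from damaged DNA activate the IKK kinases, which mark I kappa B for destruction and release the dimers to the nucleus. RELA and REL carry transactivation domains and act mainly in the canonical arm, together with p50, which is processed from the NFKB1 product. RELB pairs mostly with p52, processed from the NFKB2 product, in the non-canonical arm, which depends on stabilization of the kinase NIK. Several genes of the pathway are themselves NF-kappa B targets. NFKBIA encodes I kappa B alpha, whose resynthesis returns the dimers to the cytoplasm, TNFAIP3 encodes A20, which edits ubiquitin chains on signaling adaptors, and BIRC3 encodes the ubiquitin ligase cIAP2.

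Because feedback of this kind acts through DNA sites near the gene starts, the promoter sequences of the members were searched for the kappa B consensus on both strands. RefSeq promoter entries of GRCh38.p14 were present for 8 of the 10 genes (RELB and NFKBIE had none), with 13 annotated starts. In the 250 bases before the start, 7 of the 8 genes held a match at one or more starts, RELA being the exception, and 8 of the 13 starts held one. Of all 35116 starts in the table, 9.96% held a match, as did 11.8% of 27305 genes when all starts of a gene were pooled. The windows below lie before the starts of 4 genes whose responses are described next, written 5′ to 3′ on the strand of the gene, with the matches in capitals.
NFKBIA, GRCh38 chr14:35404750-35404869, minus strand, bases −120 to −1 before the start: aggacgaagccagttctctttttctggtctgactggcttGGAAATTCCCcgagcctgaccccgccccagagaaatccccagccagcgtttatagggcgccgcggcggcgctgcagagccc
TNFAIP3, GRCh38 chr6:137867139-137867213, plus strand, bases −120 to −46: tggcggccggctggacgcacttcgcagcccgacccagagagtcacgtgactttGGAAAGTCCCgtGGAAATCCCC
BIRC3, GRCh38 chr11:102317264-102317383, plus strand, upstream of the start: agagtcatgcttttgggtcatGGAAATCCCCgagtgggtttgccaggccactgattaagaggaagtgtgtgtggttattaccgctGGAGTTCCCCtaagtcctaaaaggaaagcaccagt
NFKB2, GRCh38 chr10:102395664-102395693, plus strand, bases −41 to −12 before the start numbered 3: cgcctccccttggtattttcGGGACTTTCC
TNFAIP3 and BIRC3 each held 2 matches in the printed window and NFKBIA held 1. A match of letters is a description of the window and says nothing about binding in these cells.

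The libraries held 3455043 to 20379777 counts (median 10656829). Levels are given as CPM, read counts scaled to library size with TMM factors, and were not corrected for gene length unless stated. PARP1 itself lay between 737 and 887 CPM in the 20 WT libraries and between 30.4 and 46.6 CPM in the 20 PARP1-KO libraries (log2 difference −4.39 with DMSO, exact two-sided permutation p = 0.0286 over 70 divisions, the smallest p this design allows). All 6 markers of the HEK293 lineage were counted in every library. With DMSO, VIM (log2 0.60 ± 0.10) and LIN28B (1.32 ± 0.18) were called higher in PARP1-KO cells and PAX2 (-2.51 ± 0.71) and NEFM (-1.95 ± 0.41) lower, as was COL1A1 (-1.04 ± 0.24) among 6 fibroblast and endothelial markers, and NEFM fell with Tpc in WT cells (log2 -2.05 ± 0.42). Their part in the results below was not tested. In contrast, the leukocyte markers PTPRC, CD3E and CD68 were at 0 in 31, 29 and 30 libraries. The summed level of the 6 leukocyte markers was 0.355 to 7.11 CPM in WT libraries and 4.02 to 10.1 CPM in PARP1-KO libraries, and 1 of the 6, CD14 (log2 4.24 ± 1.01), was called higher in PARP1-KO cells with DMSO. After thinning to 3455043 counts, 8 libraries showed fewer than 17000 genes, and all 8 were WT (untreated replicates 1 and 3, DMSO replicates 2 and 3, OL9-119 replicate 2, Tpc replicate 2, and Tpc + OL9-119 replicates 1 and 2). The remaining libraries showed up to 21660 genes. Calls were also made without these 8 libraries, and those values are given where a call of a member changed.

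Tpc raised most of the NF-kappa B genes in WT cells. At an adjusted p below 0.01 (edgeR quasi-likelihood test, Benjamini-Hochberg), 7 of the 10 genes were higher with Tpc than with DMSO and 0 were lower. Among all 28922 genes tested, 0.985% were called in this comparison and 0.629% were called as higher. The 7 called genes were also those whose Tpc libraries all lay above their DMSO libraries, as did 3.19% of all genes. The median log2 fold change of the 10 genes was 1.21, beside 0 over all genes tested.

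TNFAIP3 changed most among the members. Its level in the 4 DMSO libraries was 13.01, 12.4, 4.08 and 15.2 CPM, and in the 4 Tpc libraries it was 166, 128.3, 159 and 181 CPM. Every Tpc library thus lay far above every DMSO library, and the lowest value belonged to DMSO replicate 3, the library with the fewest genes detected at equal depth. The fold change was 14.2 (log2 3.82 ± 0.20, SE, adjusted p = 2.07e-22). Without the libraries of low complexity the log2 change was 3.60 ± 0.17. A 95 bp stretch of a TNFAIP3 exon overlaps the antisense gene WAKMAR2, and it is not stated whether the counts kept strand.

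NFKBIA, whose product closes the fastest feedback loop of the pathway, was at 50.4, 34.8, 46.5 and 42.4 CPM with DMSO and at 189, 176, 158 and 155 CPM with Tpc. The groups were far apart, with a 3.89-fold difference (log2 1.96 ± 0.13, adjusted p = 1.08e-17). The other I kappa B genes moved less. NFKBIB, encoding I kappa B beta, was at 39.8, 16.5, 46.3 and 32.9 CPM with DMSO and 44.8, 40.6, 38.8 and 43.1 CPM with Tpc, which overlapped (log2 0.31 ± 0.19, adjusted p = 0.431). NFKBIE, encoding I kappa B epsilon, was at 11.5, 5.06, 23.1 and 10.8 CPM with DMSO and 27.0, 26.5, 24.6 and 21.0 CPM with Tpc (log2 0.98 ± 0.28, adjusted p = 0.0511). DMSO replicate 3 was the only DMSO library of NFKBIE inside the range of the Tpc libraries, and without it the log2 change was 1.44 with an adjusted p of 0.000970. Without the libraries of low complexity NFKBIE was likewise called (log2 1.12 ± 0.26, adjusted p = 0.00538), as it was with length and GC offsets (log2 1.11 ± 0.25, adjusted p = 0.00390).

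BIRC3, the second feedback gene, was at 10.4, 13.2, 19.8 and 13.3 CPM with DMSO and 45.1, 37.0, 40.8 and 49.6 CPM with Tpc. The lowest Tpc library stood above the highest DMSO library, and the difference was 3.06-fold (log2 1.61 ± 0.26, adjusted p = 3.11e-05).

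Among the subunits, RELB rose the most. It was at 11.9, 9.07, 12.2 and 8.14 CPM with DMSO and 54.4, 48.3, 49.0 and 49.0 CPM with Tpc, a 4.82-fold difference with no overlap (log2 2.27 ± 0.19, adjusted p = 4.28e-14). Its usual partner NFKB2 was at 58.7, 39.98, 83.7 and 43.2 CPM with DMSO and 145, 117.4, 131 and 138 CPM with Tpc. The NFKB2 groups did not overlap either, and the difference was 2.35-fold (log2 1.23 ± 0.16, adjusted p = 2.00e-07). NFKB1 was at 37.1, 28.9, 57.5 and 45.9 CPM with DMSO and 90.8, 88.6, 99.3 and 86.4 CPM with Tpc, a 2.16-fold difference without overlap (log2 1.11 ± 0.16, adjusted p = 4.16e-06).

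RELA, the main transactivating subunit, changed least among the called genes. It was at 103.8, 87.4, 85.2 and 89.9 CPM with DMSO and 135, 127.4, 129.7 and 127.5 CPM with Tpc. The groups did not overlap, but the difference was only 1.42-fold (log2 0.50 ± 0.12, adjusted p = 0.00832), close to the threshold. Leaving out any of DMSO replicates 2, 3 and 4 or Tpc replicates 1 to 4 ended the call, with log2 changes from 0.47 to 0.58 and adjusted p up to 0.0330 over the libraries left out in turn. The call was also lost without the libraries of low complexity (log2 0.43 ± 0.13, adjusted p = 0.0576), and with RLE scaling, no filter on low counts, the library-name prefix or the number of detected genes as a covariate, the untreated comparator, or only the libraries compared (adjusted p from 0.0109 to 0.194).

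REL, encoding c-Rel, could not be read in the same way, since it varied more than any other member among WT libraries. It was at 2.56, 17.6, 8.99 and 13.3 CPM with DMSO and 20.6, 12.1, 30.9 and 32.8 CPM with Tpc, and the groups overlapped (log2 1.19 ± 0.48, adjusted p = 0.199). Over all WT groups REL lay between 0.0988 and 17.6 CPM, with a median of 6.71, in the 8 libraries of low complexity. In the other 12 WT libraries it lay between 2.56 and 32.8 CPM, with a median of 20.6. Without the 8 libraries, REL was called higher with Tpc (log2 1.99 ± 0.28, adjusted p = 4.20e-07), on 2 DMSO and 3 Tpc libraries. On all libraries it was called with no filter on low counts (log2 1.18 ± 0.25, adjusted p = 0.000325), but not in the other settings. The part of library complexity in the level of REL was not tested. REL also shares 5702 bp of exon with a gene without a symbol on the same strand (ENSG00000267520). Reads in the shared stretch cannot be assigned to either gene by position and may be missing from the count of REL.

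**Figure D1:**
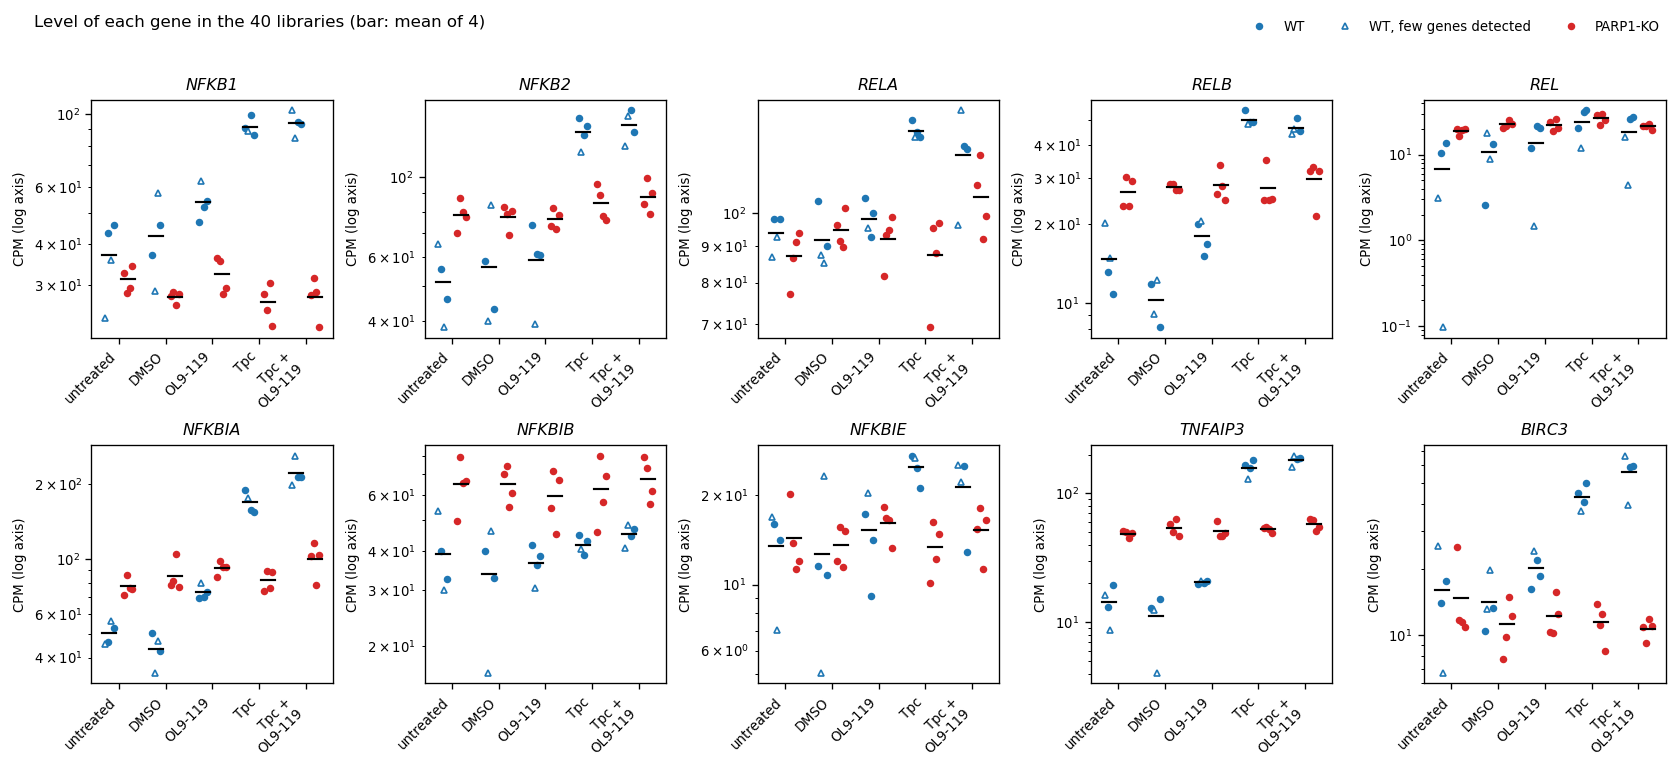
Level of each of the 10 genes (CPM, logarithmic axis, a separate scale for each panel) in every library, by treatment, with WT libraries in blue and PARP1-KO libraries in red; open triangles mark the 8 WT libraries with fewer than 17000 genes at equal depth, and black bars are means of 4. TNFAIP3, NFKBIA, RELB and NFKB2 stood highest in the WT libraries given Tpc, alone or with OL9-119, and the PARP1-KO libraries stayed level across treatments.

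OL9-119 alone had a smaller effect on the members in WT cells. Of the 10 genes, 3 were called higher than with DMSO and 0 lower, where 1.15% of all genes tested were called and 0.488% were called higher. NFKBIA was at 69.7, 80.0, 70.2 and 73.6 CPM with OL9-119, above each DMSO library and below each Tpc library (1.68-fold over DMSO, log2 0.75 ± 0.13, adjusted p = 9.57e-05). TNFAIP3 was at 19.7, 21.0, 20.3 and 21.0 CPM, a tight group just above the DMSO libraries (1.83-fold, log2 0.87 ± 0.19, adjusted p = 0.00393). RELB was at 19.99, 20.5, 15.2 and 16.8 CPM, again above each DMSO library (1.74-fold, log2 0.80 ± 0.19, adjusted p = 0.00646). These 3 genes were the members without overlap between the groups, which 3.12% of all genes shared.

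These calls depended on the comparator. In untreated WT cells TNFAIP3 was at 16.3, 13.1, 8.69 and 19.6 CPM and RELB at 20.3, 13.1, 14.8 and 10.9 CPM, so that untreated and OL9-119 libraries stood closer together, and against untreated cells the call of TNFAIP3 (log2 0.51, adjusted p = 0.141) and that of RELB (log2 0.29, adjusted p = 0.435) were lost, leaving 1 called gene. The call of RELB was lost without OL9-119 replicate 1, 2 or 4 or DMSO replicate 2 or 4 (log2 0.71 to 0.89, adjusted p up to 0.0347). That of TNFAIP3 was lost without OL9-119 replicate 1, 3 or 4 or DMSO replicate 3 (log2 0.60 to 1.03, adjusted p up to 0.0473). Leaving out OL9-119 replicate 1 or 4 left NFKBIA alone. DMSO against untreated WT cells gave 0 called members (0 also with DESeq2, and 1 of 10 at an unadjusted p below 0.05), where 0% of all genes were called and 10.8% had such a p. That gene was RELB, at a log2 change of -0.51 ± 0.19. NFKB1 was at 46.8, 62.5, 52.0 and 54.2 CPM with OL9-119 and BIRC3 at 16.3, 24.2, 22.2 and 18.6 CPM, and both overlapped their DMSO groups (log2 0.35 ± 0.16 and 0.52 ± 0.26, adjusted p = 0.260 and 0.293). RELA, NFKB2, NFKBIB and NFKBIE had log2 changes between 0.06 and 0.27. REL had 0.40 ± 0.48, and was called without the libraries of low complexity (log2 1.34 ± 0.28, adjusted p = 0.00129). Without those libraries TNFAIP3 and RELB were not called (adjusted p = 0.0483 and 0.0239).

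With Tpc + OL9-119, 6 members were called higher than with DMSO in WT cells and 0 lower, where 3.38% of all genes were called and 1.84% were called higher. TNFAIP3 reached 161, 194, 183 and 189 CPM, 16.3-fold over DMSO (log2 4.02 ± 0.20, adjusted p = 2.35e-23). NFKBIA reached 199, 259.8, 215 and 214 CPM, 5.09-fold over DMSO (log2 2.35 ± 0.13, adjusted p = 4.46e-21). These were the highest group means of either gene in the series, although the TNFAIP3 libraries overlapped those given Tpc alone. BIRC3 was at 66.2, 39.3, 59.0 and 59.9 CPM, with replicate 2 well below the rest (3.97-fold, log2 1.99 ± 0.27, adjusted p = 1.64e-07). RELB was at 44.3, 46.3, 50.8 and 45.3 CPM (log2 2.17 ± 0.19, adjusted p = 1.90e-13). NFKB2 was at 121.3, 148, 153 and 133 CPM (log2 1.295 ± 0.16, adjusted p = 3.21e-08) and NFKB1 at 102.6, 84.6, 94.4 and 93.4 CPM (log2 1.15 ± 0.17, adjusted p = 9.49e-07). All 6 of these groups lay above their DMSO groups without overlap, as did 3.56% of all genes. With length and GC offsets NFKBIB (log2 0.66, adjusted p = 0.00201), NFKBIE (adjusted p = 0.00347) and RELA (adjusted p = 0.00198) were called as well, and with DESeq2 RELA (adjusted p = 0.00425). Otherwise RELA did not pass the test here at 0.01, and its replicate 1 lay among the DMSO values (96.0, 139, 123.6 and 122.5 CPM, log2 0.39 ± 0.12, adjusted p = 0.0305). NFKBIE was at 25.2, 22.1, 25.03 and 12.9 CPM (log2 0.77 ± 0.28, adjusted p = 0.0806), and was called when DMSO replicate 3 was left out (log2 1.23, adjusted p = 0.00418). REL was not called (log2 0.78 ± 0.48, adjusted p = 0.342), but was without the libraries of low complexity (log2 1.90 ± 0.31, adjusted p = 6.75e-06).

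Whether the inhibitor added to Tpc was asked directly. Between Tpc + OL9-119 and Tpc alone, 0 of the 10 members were called (0 with DESeq2, 1 at an unadjusted p below 0.05), where 0.18% of all genes were called and 10.8% had such a p. That gene was NFKBIA, whose 4 combination libraries all exceeded the 4 Tpc libraries, as in 1.88% of all genes (log2 0.39 ± 0.13, adjusted p = 0.228). The differences of the other feedback genes were 0.38 ± 0.25 for BIRC3 and 0.20 ± 0.17 for TNFAIP3, and their groups overlapped. Against OL9-119 alone, the same 6 genes as in the comparison with DMSO were called higher, where 0.408% of all genes were called and 0.249% higher, and these 6 lay above OL9-119 without overlap, as did 2.79% of all genes (log2 3.15 ± 0.19 for TNFAIP3, 1.60 ± 0.13 for NFKBIA, 1.47 ± 0.26 for BIRC3, 1.36 ± 0.18 for RELB, 1.23 ± 0.16 for NFKB2 and 0.80 ± 0.16 for NFKB1). The NFKB1 call was lost without OL9-119 replicate 1, 3 or 4 or combination replicate 1 (log2 0.74 to 0.86, adjusted p up to 0.0287). Non-additivity, meaning how far the response to both agents departed from the responses to each added up, gave 0 calls (0 with DESeq2) and 3 members at an unadjusted p below 0.05, where 0.00346% of all genes were called and 10.4% had such a p. The estimates furthest from 0 were -0.91 ± 0.26 for RELB, -0.81 ± 0.67 for REL and -0.67 ± 0.26 for TNFAIP3 (adjusted p = 0.238, 0.761 and 0.363), where a negative value places the combination below the sum.

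**Figure D2:**
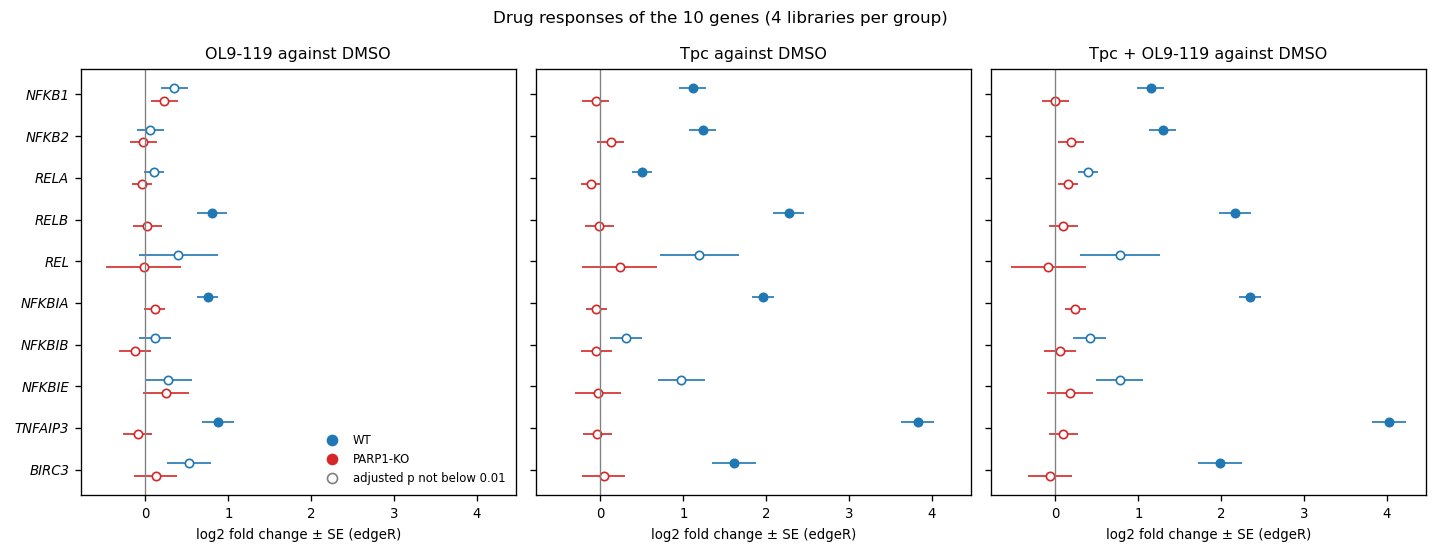
Log2 fold change against DMSO (± SE, edgeR, 4 libraries per group) of each gene with OL9-119, Tpc and both, in WT (blue) and PARP1-KO (red) cells; open symbols did not pass an adjusted p of 0.01. In WT cells TNFAIP3 reached 3.82 with Tpc and 4.02 with both agents, while the PARP1-KO symbols lay between −0.13 and 0.25 in all 3 panels.

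In PARP1-KO cells none of the 10 genes was called under Tpc, OL9-119 or both (0, 0 and 0 with edgeR, and 0, 0 and 0 with DESeq2). At an unadjusted p below 0.05 there were likewise 0, 0 and 0 members. Over all genes, 0%, 0.00346% and 0% were called, and 3.81%, 2.32% and 2.88% had an unadjusted p below 0.05. The log2 changes of the 10 genes lay between −0.13 and 0.25. TNFAIP3 was at 57.7, 50.1, 62.7 and 46.4 CPM with DMSO, 54.3, 55.0, 52.9 and 49.1 CPM with Tpc and 63.0, 61.9, 51.3 and 55.2 CPM with both. The Tpc libraries of TNFAIP3 lay inside the range of the DMSO libraries (log2 -0.04 ± 0.18). NFKBIA was at 78.4, 81.3, 105 and 76.8 CPM with DMSO, 74.2, 89.6, 76.7 and 89.0 CPM with Tpc and 102.9, 116.4, 78.5 and 103.7 CPM with both (log2 -0.05 ± 0.13 for Tpc and 0.24 ± 0.13 for both). RELB was at 28.6, 28.4, 27.1 and 27.0 CPM with DMSO and 24.8, 35.3, 24.7 and 25.1 CPM with Tpc, where replicate 2 stood apart (log2 -0.01 ± 0.18). BIRC3 was at 7.79, 9.80, 14.98 and 12.2 CPM with DMSO and 13.9, 11.1, 12.5 and 8.45 CPM with Tpc (log2 0.04 ± 0.26). NFKB2 was at 82.4, 78.7, 69.1 and 80.4 CPM with DMSO and 95.5, 88.8, 78.0 and 75.8 CPM with Tpc (log2 0.12 ± 0.16), and NFKB1 was at 27.9, 28.5, 26.1 and 28.3 and 28.2, 25.3, 30.6 and 22.6 CPM (log2 -0.06 ± 0.17). All of these groups overlapped. The DMSO solvent gave 0 calls against untreated PARP1-KO cells (0 with DESeq2, 0 at an unadjusted p below 0.05), where 0% of all genes were called and 1.86% had such a p. REL alone had all DMSO libraries above all untreated ones, as did 0.982% of genes.

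The difference between the genotypes was tested itself, as the response of PARP1-KO cells minus that of WT cells. For Tpc, 5 members had a lower response in PARP1-KO cells and 0 a higher one, where 0.173% of all genes differed and 0.142% were lower. The estimate for TNFAIP3 was -3.86 ± 0.26 (adjusted p = 5.08e-17), for RELB -2.29 ± 0.26 (adjusted p = 4.58e-09) and for NFKBIA -2.01 ± 0.18 (adjusted p = 3.51e-12). These 3 differences were far larger than their errors. NFKB1 (-1.17 ± 0.23, adjusted p = 0.00405) and NFKB2 (-1.11 ± 0.23, adjusted p = 0.00490) were close to the threshold. The NFKB1 call was lost without WT DMSO replicate 1 or 2, WT Tpc replicate 3, PARP1-KO DMSO replicate 2 or 4, or PARP1-KO Tpc replicate 2 or 4, where the estimate lay between -1.36 and -1.04 over all libraries left out in turn. The NFKB2 call was lost without WT DMSO replicate 2 or 4, WT Tpc replicate 1, 3 or 4, PARP1-KO DMSO replicate 1, 2 or 4, or PARP1-KO Tpc replicate 3 or 4 (estimates from -1.37 to -0.99). BIRC3 missed the threshold (-1.57 ± 0.37, adjusted p = 0.0336), and passed it without WT DMSO replicate 3 (-1.78, adjusted p = 0.00571). It also passed with no filter on low counts (adjusted p = 0.00119) and with only the libraries compared (adjusted p = 0.00926). RELA (-0.62 ± 0.17), REL (-0.96 ± 0.66), NFKBIB (-0.35 ± 0.27) and NFKBIE (-1.002 ± 0.40) were not called. With DESeq2 RELA was called, close to the threshold (-0.59 ± 0.15, adjusted p = 0.00990). Without the libraries of low complexity REL (-1.76 ± 0.34, adjusted p = 0.000726) and BIRC3 (-1.92 ± 0.32, adjusted p = 3.09e-05) were called as well. For the combination, 6 members were lower and 0 higher (0.432% of all genes differed, 0.311% lower). They were TNFAIP3 (-3.93 ± 0.26), NFKBIA (-2.11 ± 0.18), RELB (-2.07 ± 0.26), BIRC3 (-2.05 ± 0.37, adjusted p = 0.000427), NFKB1 (-1.15 ± 0.23) and NFKB2 (-1.11 ± 0.23), and REL was added without the libraries of low complexity (-1.97 ± 0.36, adjusted p = 0.000192). For the combination the call of NFKB1 was lost without WT DMSO replicate 1 or 2 or PARP1-KO combination replicate 4, and that of NFKB2 without WT DMSO replicate 2 or 4 or PARP1-KO combination replicate 3 (adjusted p up to 0.0132 and 0.0155). With length and GC offsets the NFKB1 calls were lost for the combination (log2 -0.86, adjusted p = 0.0737) and for Tpc (log2 -1.11, adjusted p = 0.0157). The NFKB2 call for Tpc was lost with the number of detected genes as a covariate (adjusted p = 0.0180). For OL9-119 alone 0 members differed (0 with DESeq2, 3 at an unadjusted p below 0.05, beside 0.1% of all genes called and 8.37% at an unadjusted p below 0.05), so the WT response to OL9-119 is not shown to differ from that of PARP1-KO cells. The largest of these estimates was -0.96 ± 0.26 for TNFAIP3 (adjusted p = 0.1997).

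PARP1-KO cells started from a higher level of several members. With DMSO in both genotypes, 4 members were higher and 1 lower in PARP1-KO cells, where 12.4% of all genes were called (6.67% higher and 5.75% lower). Without treatment, 5 were higher and 0 lower, where 11.7% of all genes were called (5.97% higher). The groups did not overlap for 5 members that were higher and 1 that was lower with DMSO (12.3% and 7.76% of all genes), and for 5 that were higher without treatment (11.3%). The median log2 difference of the 10 genes was 0.70 with DMSO and 0.63 without treatment, beside 0.19 and 0.17 over all genes tested.

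TNFAIP3 differed most, with 50.7, 50.4, 45.1 and 49.1 CPM in untreated PARP1-KO libraries and 16.3, 13.1, 8.69 and 19.6 CPM in untreated WT libraries. With DMSO the PARP1-KO value was 4.85-fold that of WT (log2 2.28 ± 0.19, adjusted p = 3.51e-14), and without treatment it was 3.39-fold (log2 1.76 ± 0.19, adjusted p = 1.05e-10). Even so, the mean in DMSO-treated PARP1-KO cells (54.2 ± 7.39 CPM, SD, n = 4) stood below that of Tpc-treated WT cells (158 ± 22.1 CPM). RELB was at 23.5, 30.4, 23.5 and 29.2 CPM in untreated PARP1-KO libraries and 20.3, 13.1, 14.8 and 10.9 CPM in untreated WT libraries, which did not overlap. Its log2 difference was 0.85 ± 0.18 without treatment (adjusted p = 0.000300) and 1.42 ± 0.19 with DMSO (adjusted p = 2.30e-08). NFKBIA was at 71.8, 86.5, 76.1 and 76.0 CPM against 45.2, 46.3, 56.3 and 52.5 CPM without treatment, again apart (log2 0.64 ± 0.13, adjusted p = 0.000136), and the difference with DMSO was 0.97 ± 0.13 (adjusted p = 3.92e-08).

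NFKBIB, which was called under a drug treatment only with length and GC offsets, was higher in the clone. It was at 70.05, 74.3, 55.0 and 61.0 CPM in PARP1-KO and 39.8, 16.5, 46.3 and 32.9 CPM in WT libraries with DMSO, where WT replicate 2 was the lowest (log2 0.94 ± 0.19, adjusted p = 0.000163). Without treatment the difference was 0.74 ± 0.19 (adjusted p = 0.00322), and the groups overlapped. NFKBIB shares 40 bp of exon with the antisense gene SIRT2. NFKB2 was higher without treatment (log2 0.62 ± 0.16, adjusted p = 0.00327), with 70.1, 87.3, 79.8 and 77.2 CPM against 65.0, 55.5, 38.5 and 45.8 CPM, but did not pass with DMSO (0.46 ± 0.16, adjusted p = 0.0331). In the untreated comparison, leaving out PARP1-KO replicate 2 or WT replicate 3 or 4 ended the calls of both NFKBIB and NFKB2 (adjusted p up to 0.0245 and 0.0315). With DMSO, NFKB2 passed without the libraries of low complexity (log2 0.58 ± 0.13, adjusted p = 0.000491) or without WT replicate 3 alone (log2 0.70, adjusted p = 0.000686). REL was at 20.41, 21.8, 25.4 and 22.5 CPM in PARP1-KO libraries with DMSO, a much tighter group than in WT cells, and was not called (log2 1.11 ± 0.48, adjusted p = 0.0938). It passed without the libraries of low complexity (log2 1.66 ± 0.27, adjusted p = 1.07e-06). With no filter on low counts it passed as well (log2 1.09, adjusted p = 0.000173). In the untreated comparison REL passed when WT replicate 4 was left out (log2 2.04, adjusted p = 0.00299). There it also passed with no filter (adjusted p = 1.41e-07), edgeR outside legacy mode (0.00659) and the library-name prefix as a covariate (0.00638). In the other settings at 0.01 the untreated difference of REL was not called.

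NFKB1 was the only member called lower in the clone. It was at 27.9, 28.5, 26.1 and 28.3 CPM in PARP1-KO and 37.1, 28.9, 57.5 and 45.9 CPM in WT libraries (log2 -0.61 ± 0.17, adjusted p = 0.00506). The call was lost without any of the 4 PARP1-KO libraries or WT replicate 3 or 4 (log2 -0.76 to -0.43, adjusted p up to 0.0647). Without treatment the difference was -0.25 ± 0.16 (adjusted p = 0.302), and -0.51 ± 0.15 (adjusted p = 0.00622) without the libraries of low complexity. RELA, NFKBIE and BIRC3 were not called in either comparison, with log2 differences between -0.34 and 0.11.

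Since the clone can differ from its parent line in the dosage of whole chromosome segments, the neighbours of each gene were examined as well. Over 12161 genes with a mean of at least 50 counts, the median log2 difference with DMSO was 0.02. NFKB1 lies on chromosome 4 (hg38, 102501330 to 102617302), where 27 such genes within 5 Mb had a median of −0.70. RELA lies on chromosome 11 (65653599 to 65663090), where 180 genes within 5 Mb had a median of −0.70 and the 688 genes of the chromosome −0.50. BIRC3 lies on chromosome 11 as well (102317484 to 102339403), with a median of −0.21 over 17 neighbours. NFKB2 on chromosome 10 (102394110 to 102402524) had a neighbour median of −0.38 over 81 genes. The 4 genes called higher with DMSO had neighbours that were also above 0, at 0.45 for TNFAIP3 on chromosome 6 (137867214 to 137883314, 27 genes), 0.33 for NFKBIA on chromosome 14 (35401079 to 35404749, 32 genes), 0.33 for NFKBIB on chromosome 19 (38899700 to 38908893, 148 genes) and 0.18 for RELB on chromosome 19 (45001461 to 45038192, 190 genes). TNFAIP3 exceeded its neighbours by 1.83, RELB by 1.24, NFKBIA by 0.64 and NFKBIB by 0.61 on the log2 scale, whereas NFKB1 differed from its neighbours by 0.10. RELA and NFKB2, whose neighbours were lower in the clone, stood above them by 0.75 and 0.84. Copy number was not measured, and its part in these differences was not tested.

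**Figure D3:**
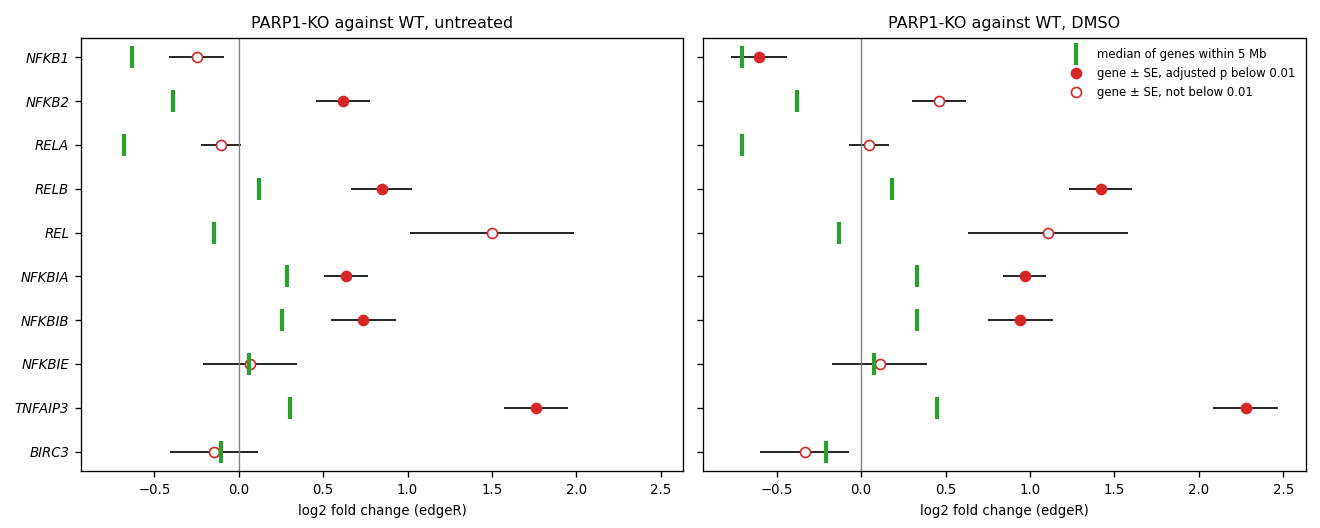
Log2 difference of PARP1-KO from WT cells (edgeR, ± SE, 4 libraries per group) for each gene without treatment and with DMSO, with filled symbols past an adjusted p of 0.01; green bars mark the median of the genes within 5 Mb averaging 50 counts or more. With DMSO, TNFAIP3 lay at 2.28 beside a neighbour median of 0.45, and NFKB1 at −0.61 beside −0.70.

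The order of the 10 groups followed from these differences, and is given as a description. For TNFAIP3 the order by mean was Tpc + OL9-119 and Tpc in WT cells (182 ± 14.5 and 158 ± 22.1 CPM), then all 5 PARP1-KO groups (57.9 ± 5.60 down to 48.8 ± 2.57), then WT cells with OL9-119 (20.5 ± 0.660), untreated (14.4 ± 4.65) and with DMSO (11.2 ± 4.88). Neighbours in this order overlapped except at 3 steps: below the WT Tpc group, below the lowest PARP1-KO group and below the WT OL9-119 group. NFKBIA had the same overall pattern from 222 ± 26.3 CPM down to 43.5 ± 6.66 CPM, and RELB from 50.2 ± 2.83 down to 10.3 ± 2.03 CPM, each with the 5 PARP1-KO groups in the middle, every neighbouring pair of which overlapped. In NFKB2 the PARP1-KO groups also stood between Tpc-treated and other WT groups, at means from 76.3 ± 4.69 to 88.2 ± 8.74 CPM, and the lowest of them overlapped WT cells with OL9-119. NFKB1 was arranged differently. All 5 WT groups (37.2 ± 9.81 to 93.7 ± 7.36 CPM) had higher means than all 5 PARP1-KO groups (26.6 ± 3.47 to 32.5 ± 4.18 CPM), and a single step, between Tpc and OL9-119 in WT cells, was free of overlap. In BIRC3 the only such step lay at the same place, below Tpc in WT cells (43.1 ± 5.46 CPM) and above OL9-119 (20.3 ± 3.52 CPM). NFKBIB had all PARP1-KO means (59.6 ± 11.9 CPM and above) over all WT means (45.1 ± 3.35 CPM and below). RELA, REL, NFKBIB and NFKBIE had no pair of neighbours in their order free of overlap.

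Levels between genes were compared per kilobase of the canonical transcript, as shares of the summed CPM per kb of the family. RELA had the highest mean share of the subunit transcripts in every group, but with both agents in WT cells it was close to NFKB2 (34.2 ± 3.05% and 32.98 ± 1.10%). NFKB2 exceeded RELA in 2 of those 4 libraries and in 1 PARP1-KO library with Tpc. With DMSO in WT cells RELA made up 51.8 ± 7.14% of the summed subunit level (SD, n = 4), NFKB2 25.8 ± 5.69%, NFKB1 14.6 ± 3.04%, RELB 6.41 ± 0.664% and REL 1.43 ± 1.001%. With Tpc the sum rose from 71.0 ± 9.48 to 143 ± 6.66 CPM per kb, and the share of RELA was 36.2 ± 1.06% while that of RELB was 15.6 ± 0.489%. In PARP1-KO cells with DMSO the share of RELB was 14.6 ± 0.705% and that of NFKB1 8.09 ± 0.218%, and with Tpc they were 14.4 ± 1.81% and 7.87 ± 1.27%. Among the I kappa B genes, NFKBIA and NFKBIB held similar shares in DMSO-treated WT cells (47.0 ± 8.40% and 44.8 ± 5.97%), and NFKBIA held 70.4 ± 1.20% with Tpc and 75.1 ± 1.36% with both agents. In PARP1-KO cells NFKBIA held 47.5 ± 6.35% with DMSO and 47.9 ± 3.66% with Tpc. These shares were not tested, as they are built from the levels tested above. That of REL was taken over its full transcript of 11108 bp, although reads in the 5702 bp shared with another gene may not be counted.

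**Figure D4:**
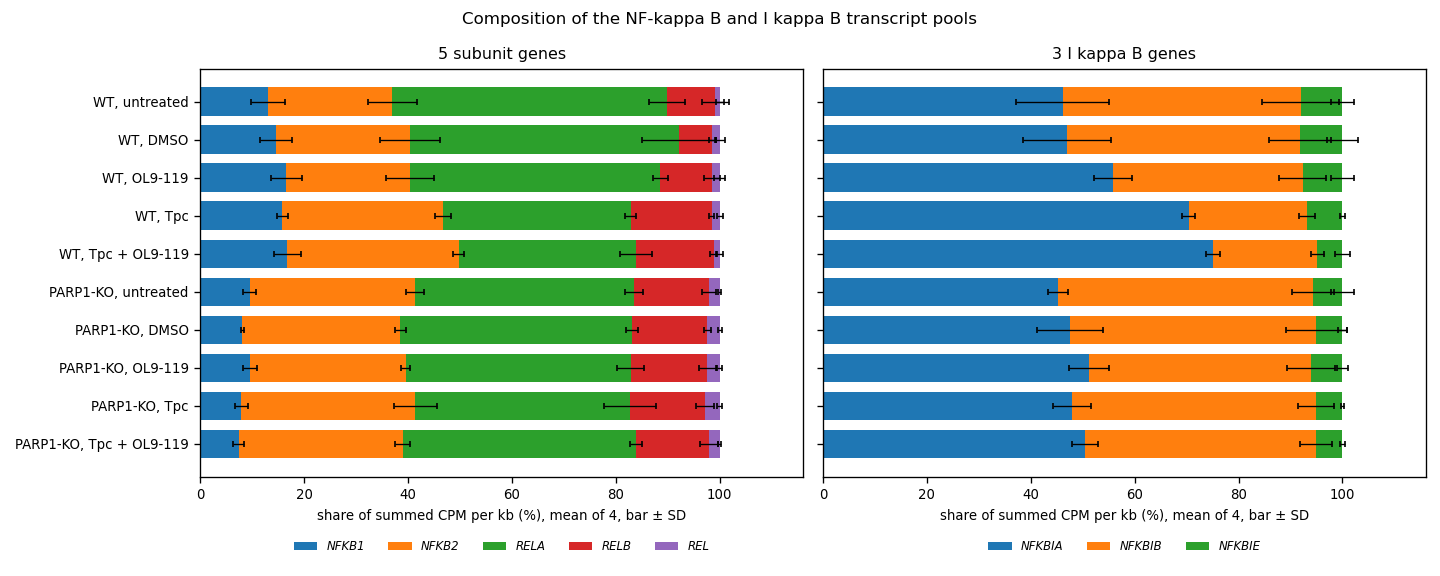
Share of each gene in the summed CPM per kb of the 5 subunit genes (left) and of the 3 I kappa B genes (right), in percent, as stacked means of 4 libraries with SD bars at the end of each segment, for all 10 groups. NFKBIA took 70.4% of the I kappa B sum in WT cells with Tpc and 47.9% in PARP1-KO cells with Tpc.

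The rest of the pathway was followed through 4 lists, which were also chosen with earlier results of these data known. Of 20 target genes tested, 11 were called higher with Tpc in WT cells, 1 with OL9-119 and 12 with both, and 0 were lower in each case, beside 0.629%, 0.488% and 1.84% of all genes called higher. The median log2 change of the targets with Tpc was 2.03, beside 0 over all genes tested. The chemokine gene CXCL1 had 13.8 ± 5.40 against 0.514 ± 0.565 CPM (log2 4.74 ± 0.59, adjusted p = 4.80e-08), and CXCL2 and CXCL10 rose from DMSO levels of 0.180 ± 0.360 and 0.222 ± 0.377 CPM to 5.33 ± 2.55 and 9.32 ± 1.24 CPM. The neutrophil chemokine gene CXCL8 was at 357 ± 69.7 CPM with both agents and 18.0 ± 2.09 CPM with OL9-119 alone. With OL9-119 the called target was the stress gene GADD45B (log2 0.97 ± 0.13, adjusted p = 4.93e-07), which was also the single target whose OL9-119 response differed between the genotypes (log2 -0.89 ± 0.18, adjusted p = 0.00782). In PARP1-KO cells 0 targets were called under any of the 3 drug treatments. The Tpc response of 6 targets was lower in PARP1-KO than in WT cells (0.142% of all genes), CXCL8 among them (log2 -4.42 ± 0.25, adjusted p = 3.79e-20). As with the members, targets were higher in PARP1-KO cells before any drug, 8 with DMSO and 6 without treatment (6.67% and 5.97% of all genes), and 0 were lower. Those furthest apart with DMSO were CXCL2, PTGS2 and GADD45B, the last at 467 ± 17.8 against 69.3 ± 11.9 CPM (log2 2.75 ± 0.14, adjusted p = 8.46e-24).

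Upstream of the members, a smaller part of each list was called in WT cells than of the members themselves. Over all genes, 0.985%, 1.15% and 3.38% were called with Tpc, OL9-119 and both. Of 14 ligands and receptors tested, 1 was called with Tpc in WT cells, the TWEAK receptor gene TNFRSF12A (log2 0.86 ± 0.14, adjusted p = 2.66e-05), and 0 with OL9-119 or both. Its Tpc response was lower in PARP1-KO cells (log2 -0.96 ± 0.19, adjusted p = 0.00494). Of 29 adaptors and kinases, 2 were called higher with Tpc. They were MAP3K14, which encodes NIK (log2 0.91 ± 0.21, adjusted p = 0.00625), and BIRC2, which encodes cIAP1 and lies beside BIRC3 (log2 0.61 ± 0.14, adjusted p = 0.00576). With both agents only BIRC2 was called (log2 0.84 ± 0.14), and with OL9-119 the ubiquitin-conjugating enzyme gene UBE2N was lower (log2 -0.57 ± 0.13, adjusted p = 0.00466). Of 19 other inhibitors and feedback genes, 2 were higher with Tpc, 1 with OL9-119 and 3 with both. IER3, an immediate early response gene, was called in all 3 comparisons (log2 1.77 ± 0.13 with Tpc, 0.77 ± 0.12 with OL9-119 and 2.21 ± 0.13 with both). NFKBIZ, an atypical nuclear I kappa B, was higher with Tpc (1.38 ± 0.33) and with both (1.45 ± 0.33), and the deubiquitinase gene CYLD with both (0.69 ± 0.16).

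Between genotypes 12.4% of all genes were called with DMSO (6.67% higher, 5.75% lower) and 11.7% without treatment, and several of the counts below lie near these shares. With DMSO, 3 ligand and receptor genes were higher in PARP1-KO cells (LTA, IL1RAP and TNFRSF12A) and 3 were lower (TLR3, LTBR and TNFRSF1A). LTA, which encodes lymphotoxin alpha, was at 4.15 ± 0.747 against 0.256 ± 0.337 CPM, and LTBR, which encodes the receptor of the membrane-bound lymphotoxin, was at 49.0 ± 2.51 against 107 ± 18.0 CPM (log2 -1.13 ± 0.13, adjusted p = 7.20e-10). TNFRSF1A, the gene of the main TNF receptor, had a log2 difference of -0.52 ± 0.12 (adjusted p = 0.00113). Of the adaptors and kinases, 5 were higher and 1 lower, with the toll-like receptor adaptor gene MYD88 (1.23 ± 0.36), MAP3K14 (0.93 ± 0.21) and PIAS4 (0.73 ± 0.18) the highest and IRAK1 (-0.52 ± 0.10) the lower one. Of the other inhibitors, 6 were higher and 0 lower, led by IER3 (1.98 ± 0.13), NFKBIZ (1.43 ± 0.32) and CYLD (0.78 ± 0.16). Without treatment the counts were 2 higher and 2 lower ligands and receptors, 4 higher and 3 lower adaptors and kinases, and 4 higher and 1 lower inhibitors.

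**Figure D5:**
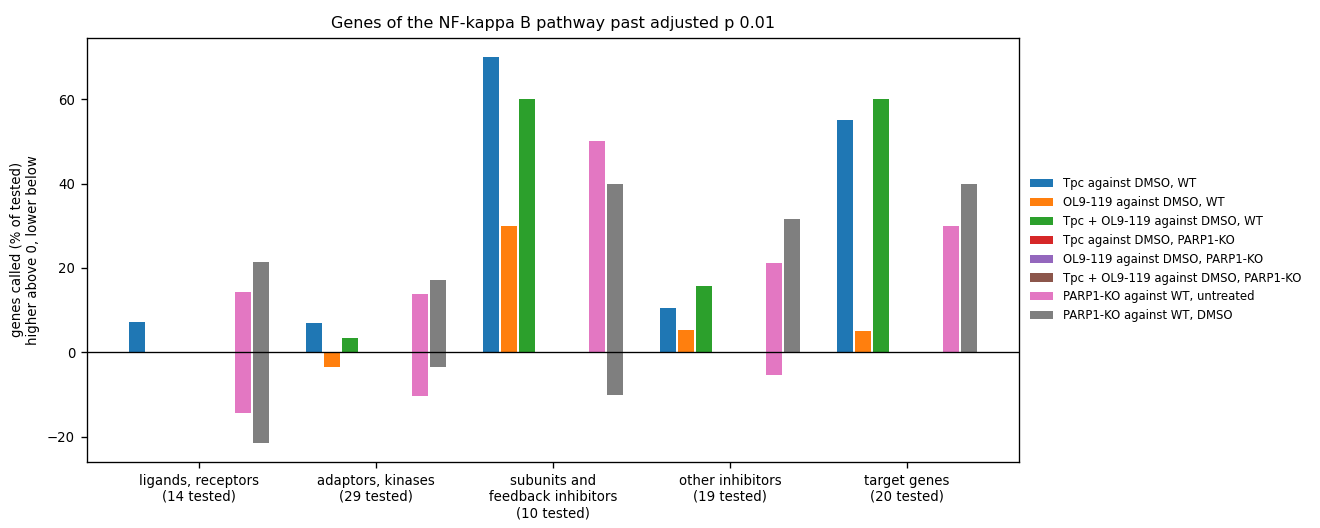
Percentage of the tested genes of each list that passed an adjusted p of 0.01, higher above 0 and lower below, in 8 comparisons. The bars of the 3 drug comparisons in WT cells showed 7, 3 and 6 of 10 members and 11, 1 and 12 of 20 target genes, and the 3 drug comparisons in PARP1-KO cells had no bar.

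Finally, the genes whose mean level over the 10 groups most resembled that of each member were listed by Pearson's r of the mean log2 CPM, among 12151 genes with a mean of at least 50 counts. These correlations over 10 group means are descriptive, since all genes share libraries and the few groups with large changes. PTX3, which encodes a secreted pattern recognition protein, was nearest to TNFAIP3 (r = 0.997) and to RELB (r = 0.983). TNFRSF9, the gene of the receptor 4-1BB, was nearest to NFKBIA (r = 0.982). CXCL1 was nearest to NFKB2 (r = 0.982) and PLAU, the urokinase gene, to BIRC3 (r = 0.985). KDM2A was nearest to NFKB1 (r = 0.971). The nearest gene of REL was HCFC2 (r = 0.986), of NFKBIB TRIP10 (r = 0.993), of RELA SLC12A7 (r = 0.954) and of NFKBIE ZNF772 (r = 0.969).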

How the data were processed

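Poly(A) RNA of HEK293A cells was sequenced as 40 directional libraries with 100 bp paired-end reads. Per the study's methods and the labels, the authors aligned reads to hg38 with the Ensembl 93 annotation using STAR 2.7.8, and deposited its raw read counts per gene, with FastQC 0.11.9 and Picard 2.26.6 for quality control. Which strand column was kept is not given in the sources used here. From these counts, 1 model was fitted to all 40 libraries and 10 groups with edgeR 4.0.16 in R 4.3.3 (TMM, quasi-likelihood F-test, legacy mode), over 28922 genes with at least 10 summed counts. A gene was called at a Benjamini-Hochberg adjusted p below 0.01, and the SE is the absolute log2 fold change divided by the square root of F. DMSO was the comparator, and 16 comparisons were made. The fit was tested on simulated data. Depth was 3455043 to 20379777 counts. Symbols came from GENCODE 44 (57754 matched), and promoters from RefSeq. 1 target gene of the lists was not analysed here. All 10 members were named. From each pathway list up to 3 called genes with the largest and up to 3 with the smallest change were named per comparison, and the genes most like each member were taken by correlation. The members and lists were chosen with earlier results of these data known. Alternatives were RLE scaling, other filters, edgeR without legacy mode, DESeq2 1.42.0, a threshold of 0.05, length and GC offsets, library-name prefix, replicate block, untreated comparator, only the libraries compared, and each library left out. Complexity was added after the data were seen.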

Additional observations from a re-analysis of the deposited data

Results flagged for a closer look

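In 7 of 100 gene-by-group sets of 4 libraries, 1 library stood apart from the other 3 by more than Dixon's 95% critical value, where chance gives about 1 in 20. RELB was high in WT Tpc replicate 1 (54.4 CPM, others 48.3 to 49.0) and in PARP1-KO Tpc replicate 2 (35.3 CPM, others 24.7 to 25.1), and low in PARP1-KO Tpc + OL9-119 replicate 3 (21.5 CPM, others 31.97 to 33.2). REL was low in untreated PARP1-KO replicate 2 (16.5 CPM, others 19.4 to 19.8). NFKBIA was high in PARP1-KO DMSO replicate 3 (105 CPM, others 76.8 to 81.3), TNFAIP3 in PARP1-KO OL9-119 replicate 1 (60.5 CPM, others 47.0 to 49.1), and BIRC3 in untreated PARP1-KO replicate 1 (25.2 CPM, others 10.8 to 11.7). Without these libraries in turn, the comparisons of these genes kept their side of the threshold.

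The drug response differed between genotypes for 5 genes with Tpc and 6 with Tpc + OL9-119, by the test of the difference itself (edgeR, adjusted p), each response being lower in PARP1-KO cells. For Tpc the log2 differences were −3.86 for TNFAIP3 (5.08e-17), −2.29 for RELB (4.58e-09), −2.01 for NFKBIA (3.51e-12), −1.17 for NFKB1 (0.00405) and −1.11 for NFKB2 (0.00490). For Tpc + OL9-119 they were −3.93 for TNFAIP3 (2.34e-17), −2.11 for NFKBIA (3.96e-13), −2.07 for RELB (5.87e-08), −2.05 for BIRC3 (0.000427), −1.15 for NFKB1 (0.00251) and −1.11 for NFKB2 (0.00252). Tpc was 100 nM in WT and 50 nM in PARP1-KO cells, so that genotype and dose cannot be told apart here.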

How the results depend on the processing

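Of 3660 recomputed values of the 10 genes (each gene, comparison and setting), 3544 kept their side of the threshold, 33 newly passed it and 83 no longer passed it. This count does not cover the sign of changes that were not called. The OL9-119 response in WT cells was the least stable: the 3 called members became 1 with edgeR outside legacy mode, 1 against untreated cells, 0 when only the libraries compared were fitted, and 1 to 3 when 1 library was left out. With the number of genes detected at a common depth as a covariate, 3 rather than 5 members were called between genotypes with DMSO, and 3 rather than 5 without treatment. Leaving out 1 library gave 3 to 5 called members for the untreated genotype comparison and 3 to 6 for the genotype difference of the Tpc response. The other counts stayed within 1.5 times, at 6 to 8 for Tpc and 6 to 9 for the combination in WT cells, and the comparisons with 0 called members stayed at 0 in every setting run. The replicate number as a block left all counts of called members as they were (5, 5, 7, 3, 6, 6, 5 and 6). Deviations from the group means correlated at 0.0593 on average between same-numbered WT libraries (over 0.1 in 15 of 40 pairs). Between WT libraries of other numbers the average was -0.00651. In PARP1-KO cells these averages were 0.107 (19 of 40 pairs over 0.1) and -0.0309. Same-numbered libraries also shared a library-name prefix in part, and what else they shared is not stated.

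Counts over all genes moved more. In the order Tpc, OL9-119 and both against DMSO in WT cells, the fit called 285, 334 and 978 genes, DESeq2 517, 719 and 1617, the fit to only the libraries compared 0.398% of genes (Tpc), 95 and 394, and the threshold of 0.05 gave 571, 783 and 2137. Tpc gave 466 with length and GC offsets, OL9-119 gave 556 with no filter, and the combination gave 573 without the libraries of low complexity. The combination against Tpc gave 52 genes, against 82 (threshold 0.05), 79 (no filter), 106 (DESeq2) and 100 (only the libraries compared). Against OL9-119 it gave 118, and 244, 210, 278 and 215 under the same settings and 185 with offsets. Between genotypes, 3592 genes with DMSO became 2061 with only the libraries compared and 5585 at 0.05, and 3386 without treatment became 5294 at 0.05. The genotype differences of the Tpc, OL9-119 and combined responses called 50 genes, 29 genes and 0.432% of genes, and 88, 52 and 248 with DESeq2, 79, 52 and 227 with no filter, and 29, 19 and 78 against untreated cells. The other changes were 78 and 251 at 0.05 for Tpc and the combination, 92 and 46 for Tpc and OL9-119 without the libraries of low complexity, 44 for OL9-119 with offsets, and 83 for the combination with only the libraries compared. Drug responses in PARP1-KO cells (0, 1 and 0 genes) reached at most 21, 14 and 5, DMSO in WT cells 9 and non-additivity 16 rather than 1. The share of called genes that were higher moved by over 10 points for OL9-119 in WT cells (42.2% to 56.8% with only the libraries compared), for the combination against OL9-119 (61.0% to 50.0%, 45.1% and 47.0% with no filter, only the libraries compared and without low complexity), and for the genotype differences with no filter (18.0% to 30.4%, 20.7% to 38.5% and 28% to 41.9%) or DESeq2 (18.0% to 30.7% for Tpc). Leaving out 1 library moved some counts by over 1.5 times. OL9-119 in WT cells gave 595 genes without DMSO replicate 4, 215 without DMSO replicate 3, and 201, 206 and 187 without OL9-119 replicates 1, 3 and 4. The combination gave 612 without its replicate 1 and 597 without DMSO replicate 3. Against Tpc it gave 34 without its replicate 1 and 31, 34 and 33 without Tpc replicates 1, 2 and 3, and against OL9-119 it gave 71 and 75 without its replicates 1 and 2 and 77 and 74 without OL9-119 replicates 2 and 3. Non-additivity gave up to 5 (without OL9-119 replicate 2; 3, 2 and 4 without DMSO replicates 1, 2 and 4), and the 1 gene called with OL9-119 in PARP1-KO cells fell to 0 without DMSO replicate 1, 2 or 4 or any OL9-119 library. The causes were not tested. REL had its lowest WT value, 0.0988 CPM from a count of 1, in untreated replicate 3. That library held 10666982 counts in all and 15564 genes after thinning, and the reason for its low REL count was not tested.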
